A study of Mus musculus with 6 samples.

Results

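The matrix metalloproteinases and their inhibitors were described in Lewis lung carcinoma cells, a mouse lung tumour line, after knockdown of uroporphyrinogen decarboxylase (Urod), an enzyme of heme synthesis. The set was given as a list of names: the metalloproteinases Mmp2, Mmp3, Mmp9, Mmp10, Mmp13 and Mmp14, the related protease Adamts1, and the tissue inhibitors Timp1, Timp2 and Timp3. All 10 were found among the 19617 rows of the expression table, and all 10 had a value above 0 in every library. The tested libraries, 3 in number, came from cells with an inducible Urod shRNA (genotype labelled Urod knockdown). The comparison libraries, also 3, came from cells with a scrambled shRNA (genotype labelled Urod wildtype). Both groups received doxycycline at 2 ug/mL for 4 days, so the drug that switches the hairpins on was present throughout. The number of hairpins and of clones, and whether the replicates were separate cultures, are not given in the sources used here, so the p-values below speak only of variation among these 6 libraries, part of which may be technical.

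Matrix metalloproteinases are zinc proteases that cut collagens, laminins and other proteins outside the cell, and they also release growth factors and cytokines. Most are secreted as inactive proenzymes, while Mmp14 sits in the cell membrane. TIMPs bind the active site and block it. Timp2 also has a positive role, since a complex of membrane Mmp14 with Timp2 captures proMmp2 for cleavage by a neighbouring Mmp14 molecule. In tumours these proteases are known for basement membrane breakdown and invasion, and in tissue much of the supply comes from stromal and immune cells. Values below are transcript levels of cultured cells and hold no measure of enzyme activity.

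Each deposited level is in TPM, a transcript abundance corrected for transcript length and scaled to a fixed total of 1000000 per library, so levels can be set side by side between genes. Urod itself stood at 5.71, 5.21 and 5.35 TPM with the Urod hairpin, against 95.2, 89.9 and 92.1 TPM with the scrambled hairpin, which is 5.87% of the scrambled mean. Whole reads were recovered from the spacing of the deposited values, and they totalled 43912499 to 50583142 in Urod shRNA libraries and 38225957 to 43116931 in scrambled libraries. The transcriptome differed widely between the groups: limma called 8945 of 11980 tested genes at an adjusted p under 0.05 (74.7%), 38.5% of tested genes higher and 36.2% lower. Groups did not overlap for 77.3% of tested genes. A call on any single gene is read against that background.

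Markers of other cells were low, with exceptions. Of the leukocyte list, Ptprc (CD45) averaged 0.0410 TPM with the Urod hairpin and 0.0590 TPM with the scrambled one. The summed level of that list of 9 names, 8 of them in the table, was 55.2 to 58.4 TPM in Urod shRNA libraries against 111 to 113 TPM in scrambled libraries, nearly all of it from Lyz2, Cd68 and Cd14. Of these, Lyz2 and Cd68 were called lower, and Cd14 was called higher, at 12.9 TPM with the Urod hairpin and 8.37 TPM with the scrambled one (log2 change 0.57, limma adjusted p = 5.66e-05). Fibroblast markers summed to 34.0 to 36.2 TPM with the Urod hairpin against 57.1 to 60.0 TPM with the scrambled one, nearly all from Pdgfra. Epithelial markers summed to 447 to 470 TPM in Urod shRNA libraries against 304.5 to 331 TPM in scrambled libraries, nearly all from the keratin Krt8. Epcam was called lower, at 0.943 TPM with the Urod hairpin and 1.96 TPM with the scrambled one (log2 change -0.61, limma adjusted p = 0.00039). Epcam entered the test, which required a mean of at least 1 TPM, only through the scrambled group. Cdh1 averaged under 1 TPM in both groups. The endothelial list summed to 9.63 to 10.8 TPM with the Urod hairpin against 6.33 to 6.88 TPM with the scrambled one. Pecam1 was called higher (7.37 TPM with the Urod hairpin, 4.74 TPM with the scrambled one, limma adjusted p = 7.43e-05). Vwf was called lower (1.06 and 1.49 TPM, limma adjusted p = 0.0178). Cdh5, Kdr and Tek averaged under 1 TPM over all libraries and were untested, with higher means in the Urod shRNA group. The neutrophil list summed to 18.9 to 22.5 TPM in Urod shRNA libraries against 15.8 to 20.1 TPM in scrambled libraries, nearly all from S100a8, which was not called. Elane went the other way, at 0.365 TPM with the Urod hairpin and 1.27 TPM with the scrambled one. Lung epithelial markers stood at 0.113 to 0.162 TPM in sum with the Urod hairpin against 0.329 to 0.629 TPM with the scrambled one. S100a9 and Ly6g of the neutrophil list and Nkx2-1 of the lung epithelial list had no row, so their levels are not known here. No listed marker with a row was at 0 in every library. The part of these differences in the results below was not tested. In bulk RNA, fewer cells of a type and less RNA per cell cannot be told apart.

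**Figure D1:**
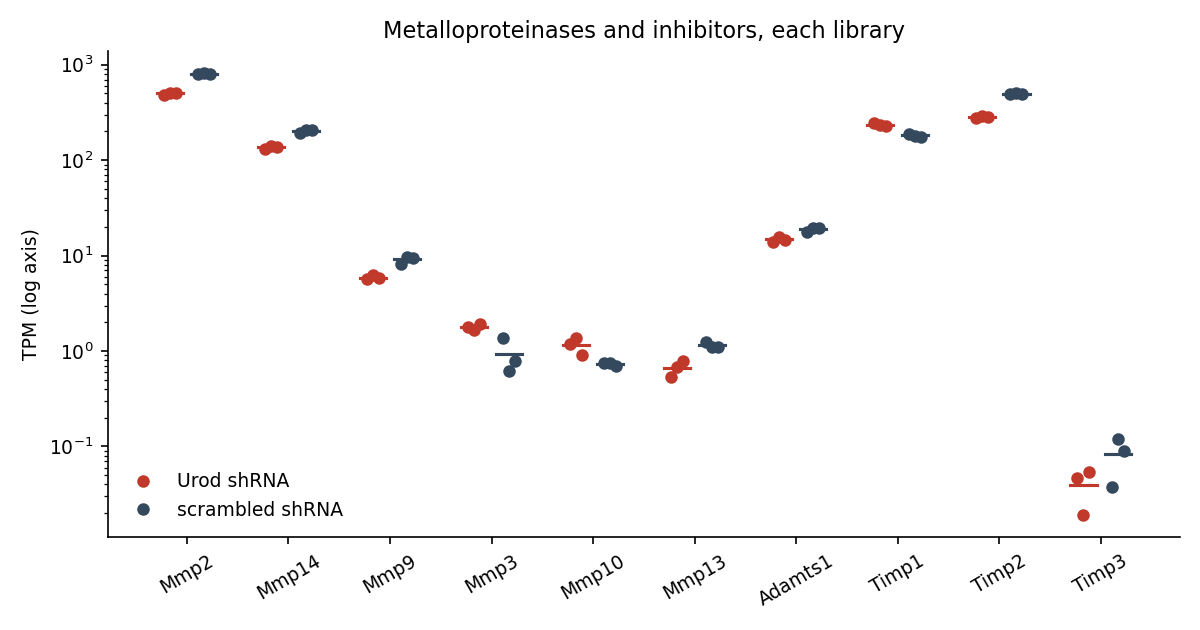
Levels of the 10 genes in TPM, on a log axis; each point is 1 library, Urod shRNA libraries stand left of scrambled shRNA libraries, and horizontal lines are group means (n = 3 each). The groups are apart for every gene except Timp3, with Mmp3, Mmp10 and Timp1 higher and the other 6 lower in Urod shRNA libraries. Of all tested genes, those with a mean of at least 1 TPM, 77.3% had groups apart.

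Of the 10 genes, 7 had a mean of at least 1 TPM over the 6 libraries and entered the limma test. Timp1 and Mmp3 rose, and Mmp2, Mmp9, Mmp14, Timp2 and Adamts1 fell. Their median change was -0.56 on the log2(TPM + 1) scale, beside 0.02 over all tested genes. Mmp3 entered the test only through its level in Urod shRNA libraries. Mmp10, Mmp13 and Timp3 averaged under 1 TPM over the 6 libraries and are given by their values, with the test on whole reads beside them.

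Mmp2, gelatinase A, cuts type IV collagen and denatured collagen, and it was the most abundant of the 10 transcripts in both groups. It measured 483, 508 and 508 TPM in Urod shRNA libraries, against 794, 822 and 793 TPM in scrambled libraries. The highest Urod shRNA library lay far under the lowest scrambled one. Mmp2 fell to a mean of 499.6 ± 14.1 TPM with the Urod hairpin, against 803.0 ± 16.8 TPM with the scrambled one (SD, n = 3 each), a log2 change of -0.68 (SE 0.03, limma adjusted p = 1.19e-06). Between 30550 and 45626 reads stood behind each library's value. The gene (ENSMUSG00000031740.8) lies on the plus strand at chr8:92827291-92853420 of the mm10 assembly, GENCODE vM21.

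Mmp14, the membrane protease that activates proMmp2, measured 130.5, 140.6 and 138 TPM in Urod shRNA libraries, against 194, 209 and 206 TPM in scrambled libraries. The groups did not overlap. Its level was 136 ± 5.25 TPM with the Urod hairpin and 203.0 ± 8.10 TPM with the scrambled one, so it fell to 67.2% of the scrambled mean (log2 change -0.57, SE 0.04, limma adjusted p = 1.06e-05). The gene (ENSMUSG00000000957.11) is at chr14:54431612-54445364, plus strand.

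Timp2, the inhibitor that bridges Mmp14 and proMmp2, had the largest fall among the 7 tested genes. It measured 277, 293 and 283 TPM in Urod shRNA libraries, against 491.5, 507.5 and 498 TPM in scrambled libraries. Each Urod shRNA library held under 60% of any scrambled one. Timp2 fell by 0.81 on the log2(TPM + 1) scale (SE 0.03, limma adjusted p = 4.64e-07), with means of 284 ± 8.01 TPM with the Urod hairpin against 499 ± 8.01 TPM with the scrambled one. The gene (ENSMUSG00000017466.9) is at chr11:118301069-118355740, minus strand. All 3 genes of the activation complex were thus lower, by unequal amounts, in a comparison where 36.2% of all tested genes were called lower.

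Within each library the proportions of that trio shifted modestly. The ratio of Mmp2 to Timp2 was 1.76 ± 0.0332 in Urod shRNA libraries and 1.61 ± 0.0152 in scrambled libraries. Mmp2 over Mmp14 was 3.66 ± 0.0459 with the Urod hairpin and 3.96 ± 0.126 with the scrambled one. Timp2 over Mmp14 was 2.09 ± 0.0388 in Urod shRNA libraries against 2.46 ± 0.0661 in scrambled libraries. Groups did not overlap in any of these 3 ratios, which are descriptions with no test.

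The 250 bases before the RefSeq start of Mmp14 and Timp2 are shown because these 2 genes both fell, and those of Timp1, which rose, for contrast. They are RefSeq sequences of GRCm38.p6, written 5′ to 3′ on the gene's strand. Capitals would mark AP-1 letters (TGANTCA, either strand) or TATA box letters (TATAAA, sense strand), and none were found in these windows. The windows are chr14:54431348-54431597 (plus strand) for Mmp14, chr11:118355412-118355661 (minus strand) for Timp2 and chrX:20869916-20870165 (plus strand) for Timp1. The RefSeq start of Timp2 lies downstream of the GENCODE start given above, so its window falls inside the GENCODE gene span.
Mmp14: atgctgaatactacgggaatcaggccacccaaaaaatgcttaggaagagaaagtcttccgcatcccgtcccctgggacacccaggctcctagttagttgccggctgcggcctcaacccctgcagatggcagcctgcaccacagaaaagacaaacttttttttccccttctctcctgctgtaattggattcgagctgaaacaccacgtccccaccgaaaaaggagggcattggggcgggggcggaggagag
Timp2: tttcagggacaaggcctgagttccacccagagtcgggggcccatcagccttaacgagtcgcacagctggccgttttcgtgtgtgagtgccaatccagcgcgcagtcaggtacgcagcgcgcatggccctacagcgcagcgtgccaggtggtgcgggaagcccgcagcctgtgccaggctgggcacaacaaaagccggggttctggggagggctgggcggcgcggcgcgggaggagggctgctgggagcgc
Timp1: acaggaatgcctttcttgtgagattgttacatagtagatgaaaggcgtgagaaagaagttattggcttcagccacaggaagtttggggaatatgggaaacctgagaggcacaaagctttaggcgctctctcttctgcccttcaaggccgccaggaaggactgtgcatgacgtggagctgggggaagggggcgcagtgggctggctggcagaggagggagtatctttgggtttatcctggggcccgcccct
All 3 hold the GC box letters GGGCGG on either strand, which 32.7% of 32851 mouse promoter windows of the same length hold. The match starts 37 bases before the RefSeq start of Timp2 and 8 bases before that of Timp1, and Mmp14 has matches at 19 and 13 bases. The windows are 55.2% G or C for Mmp14, 68.0% for Timp2 and 54.4% for Timp1, beside a median of 52.4% over all windows. These matches are descriptions and name no bound factor.

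Mmp9, gelatinase B, is the other type IV collagenase and in tissue is made in quantity by neutrophils and macrophages. It stood at a far lower level than Mmp2: 5.65, 6.19 and 5.78 TPM in Urod shRNA libraries, against 8.21, 9.74 and 9.53 TPM in scrambled libraries. The groups were apart. Mmp9 fell to 64.1% of the scrambled mean (5.87 ± 0.284 TPM with the Urod hairpin against 9.16 ± 0.829 TPM with the scrambled one), with a log2 change of -0.56 (SE 0.07, limma adjusted p = 0.000253). The leukocyte list summed to 55.2 to 58.4 TPM in the same Urod shRNA libraries against 111 to 113 TPM in the scrambled ones, with Cd14 called higher, Lyz2 and Cd68 called lower, and Ptprc near 0 in both groups. Whether it has a part in the Mmp9 value was not tested. The gene (ENSMUSG00000017737.2) is at chr2:164940780-164955850, plus strand.

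Adamts1 is a secreted protease of the related ADAMTS family that cuts the proteoglycans versican and aggrecan. It measured 14.0, 15.8 and 14.7 TPM in Urod shRNA libraries, against 17.8, 19.4 and 19.3 TPM in scrambled libraries. The fall was a smaller share of the scrambled mean than for the gelatinases, but the groups did not overlap. Adamts1 fell to 78.6% of the scrambled mean (14.8 ± 0.915 TPM with the Urod hairpin against 18.8 ± 0.902 TPM with the scrambled one, log2 change -0.33, SE 0.06, limma adjusted p = 0.00138). The gene (ENSMUSG00000022893.14) is at chr16:85793827-85803113, minus strand.

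Timp1, which inhibits most secreted metalloproteinases and binds proMmp9, moved opposite to Timp2. It measured 243, 235.4 and 227 TPM in Urod shRNA libraries, against 189.5, 179 and 176 TPM in scrambled libraries. Every Urod shRNA library was higher than every scrambled one. Timp1 rose by 0.37 on the log2(TPM + 1) scale (SE 0.04, limma adjusted p = 8.24e-05), with means of 235.0 ± 8.07 TPM with the Urod hairpin and 181 ± 7.26 TPM with the scrambled one (SD, n = 3 each). The gene (ENSMUSG00000001131.11) is at chrX:20870166-20874735, plus strand.

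Timp3, the inhibitor that binds to the matrix and also blocks ADAM and ADAMTS proteases, was close to undetected. It had 5, 2 and 5 reads in Urod shRNA libraries and 3, 10 and 8 reads in scrambled libraries, or 0.0462, 0.0193 and 0.0540 TPM with the Urod hairpin against 0.0380, 0.12 and 0.0903 TPM with the scrambled one. The groups overlapped. Pooled, that is 0.0835 CPM (reads counted against a library total of 1000000, 95% exact Poisson interval 0.0432 to 0.146) with the Urod hairpin against 0.172 CPM (0.107 to 0.263) with the scrambled one, intervals that cover counting error only. No difference was detectable at this depth (limma voom on whole reads without a filter, log2 change -0.94, SE 0.50, adjusted p = 0.144). Without scrambled replicate 1 the adjusted p was 0.0284 with a log2 change of -1.36, while over the other libraries left out it was 0.137 to 0.431. Of its 8144 annotated exon bases, 1733 are shared with Syn3 on the opposite strand, and whether reads were counted by strand is not stated, so its few reads cannot be assigned with certainty. The gene (ENSMUSG00000020044.13) is at chr10:86300372-86349506, plus strand.

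**Figure D2:**
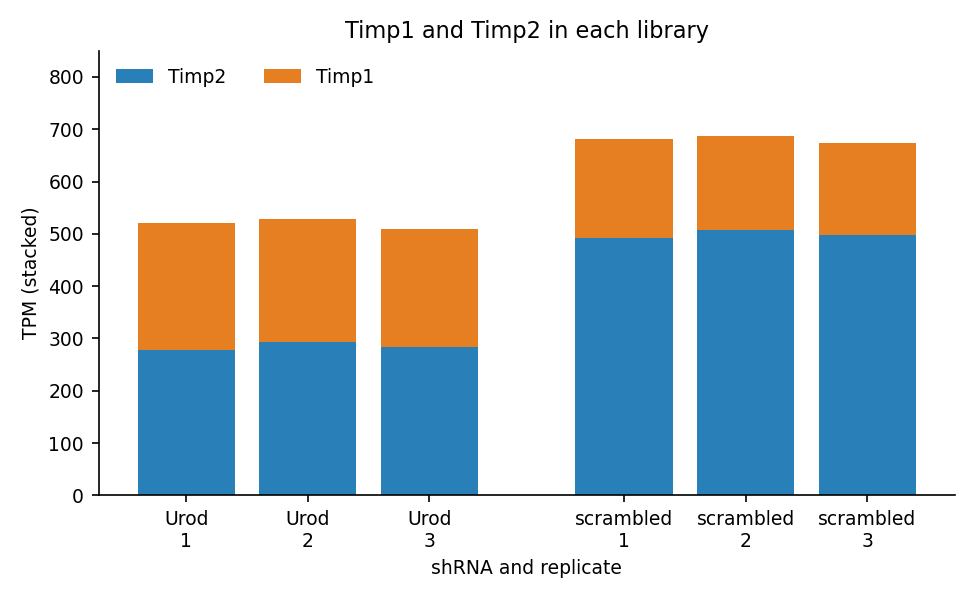
Stacked TPM of Timp2 (lower part of each bar) and Timp1 (upper part), with 1 bar per library and the 3 Urod shRNA libraries left of the 3 scrambled shRNA libraries. Timp1 made 44.5% to 46.7% of the inhibitor sum in Urod shRNA libraries and 26.1% to 27.8% in scrambled libraries.

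The make-up of the inhibitor pool differed between the groups. Summed over Timp1, Timp2 and Timp3, the level was 520, 528 and 509.5 TPM in Urod shRNA libraries and 681, 687 and 674 TPM in scrambled libraries. Timp1 made 46.7%, 44.6% and 44.5% of that sum with the Urod hairpin, against 27.8%, 26.1% and 26.1% with the scrambled one. Timp2 stood at 1.14, 1.25 and 1.25 times Timp1 in Urod shRNA libraries and at 2.59, 2.84 and 2.84 times in scrambled libraries. The plot of stacked inhibitor levels shows nearly even parts in one group and a Timp2 majority in the other.

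The summed proteinase level was lower by a larger share than the summed inhibitor level. The 6 metalloproteinases and Adamts1 summed to 637, 674 and 670 TPM in Urod shRNA libraries, against 1017, 1063 and 1031 TPM in scrambled libraries, and Mmp2 alone made 75.3% to 75.9% of the sum with the Urod hairpin and 77.0% to 78.1% with the scrambled one. The ratio of that sum to the inhibitor sum was 1.23, 1.28 and 1.32 with the Urod hairpin and 1.49, 1.55 and 1.53 with the scrambled one. No library of one group entered the range of the other. The mean ratio was 1.27 ± 0.0451 in Urod shRNA libraries against 1.52 ± 0.0283 in scrambled libraries. Leaving Mmp2 and Timp2 out of the sums gave 0.685 ± 0.0454 with the Urod hairpin against 1.29 ± 0.0985 with the scrambled one. These are ratios of transcript levels chosen by name, carry no test, and say nothing of protein or activity.

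The stromelysins Mmp3 and Mmp10 and the collagenase Mmp13 lie together in the metalloproteinase cluster of chromosome 9. Mmp3 and Mmp10 cut proteoglycans, laminin and fibronectin and activate other proMMPs, and Mmp13 cuts fibrillar collagen. All 3 were expressed near 1 TPM, on 20 to 75 reads per library, and their values differed in direction between the groups. Their 250-base promoter windows (RefSeq, GRCm38.p6, plus strand, 5′ to 3′) are shown because each holds both an AP-1 match, for the site of Fos and Jun family dimers, and a TATA box match, in capitals. The windows are chr9:7445572-7445821 for Mmp3, chr9:7502092-7502341 for Mmp10 and chr9:7272264-7272513 for Mmp13.
Mmp3: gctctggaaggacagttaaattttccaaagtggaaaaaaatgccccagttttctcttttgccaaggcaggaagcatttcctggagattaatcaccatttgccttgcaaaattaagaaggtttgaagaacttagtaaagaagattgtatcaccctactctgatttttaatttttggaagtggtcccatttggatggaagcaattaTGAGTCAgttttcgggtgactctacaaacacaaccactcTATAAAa
Mmp10: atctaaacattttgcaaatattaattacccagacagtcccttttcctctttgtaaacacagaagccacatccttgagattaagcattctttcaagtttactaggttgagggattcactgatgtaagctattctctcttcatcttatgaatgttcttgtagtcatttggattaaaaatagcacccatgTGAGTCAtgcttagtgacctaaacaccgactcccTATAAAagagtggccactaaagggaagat
Mmp13: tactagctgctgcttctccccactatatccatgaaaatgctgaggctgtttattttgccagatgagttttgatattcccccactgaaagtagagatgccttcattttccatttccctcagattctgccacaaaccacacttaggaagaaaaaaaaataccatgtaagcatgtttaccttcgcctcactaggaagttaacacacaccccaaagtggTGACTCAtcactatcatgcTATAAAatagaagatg
The AP-1 letters start 46 bases before the start site of Mmp3, 63 before that of Mmp10 and 35 before that of Mmp13. TATAAA starts 7, 29 and 16 bases before those sites. Of 32851 windows of the same length, 6.75% hold the AP-1 letters, 7.59% hold TATAAA and 0.792% hold both. Of the 8 genes with a promoter entry, Timp3 and Adamts1 were without an AP-1 match too, and Adamts1 held TATAAA 32 bases before its start. The ETS letters AGGAAG (either strand), held by 29.5% of windows, were found in Mmp3, Mmp13, Mmp14, Timp1 and Timp3.

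Mmp3 measured 1.80, 1.66 and 1.91 TPM in Urod shRNA libraries, against 1.39, 0.624 and 0.793 TPM in scrambled libraries. Scrambled replicate 1 was the highest of its group, and still lower than any Urod shRNA library. The reads behind these values were 75, 66 and 68 in Urod shRNA libraries against 42, 20 and 27 in scrambled libraries. Mmp3 rose by 0.55 on the log2(TPM + 1) scale (SE 0.14, 95% interval 0.21 to 0.88, limma adjusted p = 0.00913), a scale that understates changes near 1 TPM. By limma voom on the whole reads the change was 1.06 (SE 0.25, adjusted p = 0.00399). Pooled over libraries, Mmp3 had 1.46 CPM of recovered reads (95% exact Poisson interval 1.26 to 1.67) with the Urod hairpin against 0.730 CPM (0.586 to 0.898) with the scrambled one. The gene (ENSMUSG00000043613.8) is at chr9:7445822-7455975.

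Mmp10 measured 1.20, 1.38 and 0.903 TPM in Urod shRNA libraries, against 0.753, 0.744 and 0.701 TPM in scrambled libraries. Urod shRNA replicate 3 lay nearest the scrambled ones, without reaching them. The mean of 1.16 ± 0.242 TPM with the Urod hairpin rested on 132 reads in all, and that of 0.733 ± 0.0278 TPM with the scrambled one on 68. Without the filter on low levels, limma voom gave a log2 change of 0.68 (SE 0.22, adjusted p = 0.0228). Leaving out 1 library at a time gave changes of 0.56 to 0.84, and the call was lost (adjusted p 0.0537 to 0.0719) without Urod shRNA replicate 1 or 2 and without scrambled replicate 2 or 3. The gene (ENSMUSG00000047562.3) is at chr9:7502352-7510240.

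Mmp13 measured 0.534, 0.677 and 0.793 TPM in Urod shRNA libraries, against 1.24, 1.09 and 1.11 TPM in scrambled libraries. No Urod shRNA library reached the scrambled range. It had 115 reads in all with the Urod hairpin, 0.801 CPM (95% exact Poisson interval 0.661 to 0.961), and 164 reads with the scrambled one, 1.35 CPM (1.15 to 1.57). By limma voom without the filter the log2 change was -0.76 (SE 0.19, adjusted p = 0.00537), and it kept an adjusted p of 0.0227 or less without any 1 library. The gene (ENSMUSG00000050578.10) is at chr9:7272514-7283331. Over all rows with reads, that test called 55.4% of 19590 genes, and 9 of the 10 genes described here, all but Timp3.

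**Figure D3:**
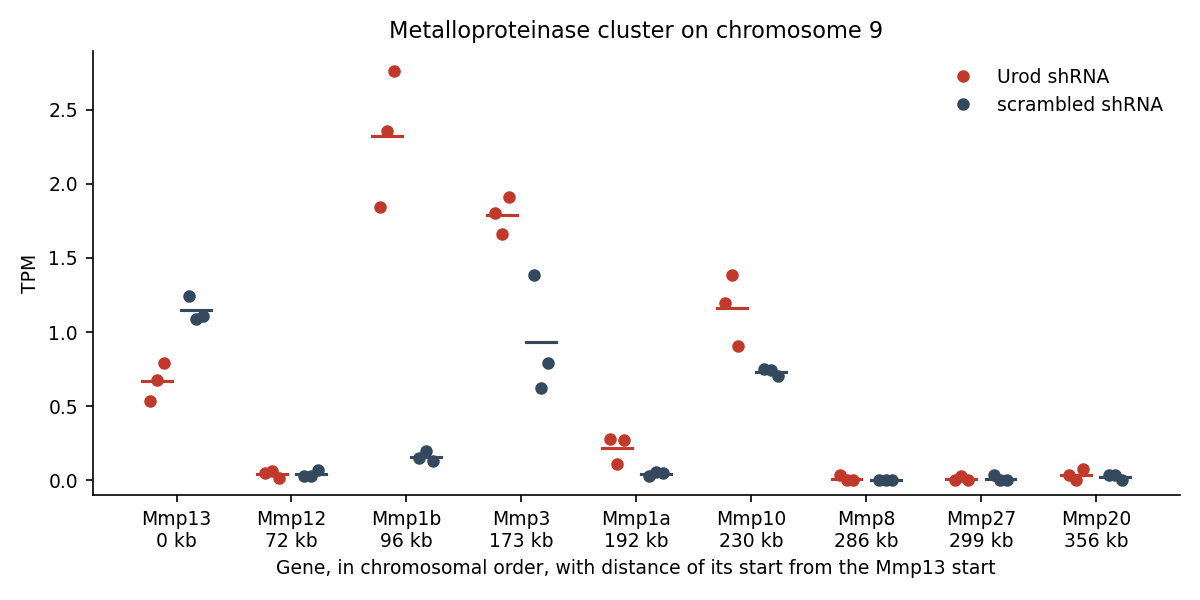
Levels in TPM of 9 genes of the chromosome 9 metalloproteinase cluster, in chromosomal order at even spacing, with the distance of each start from that of Mmp13 in kb; points are libraries, lines are group means (n = 3), and Urod shRNA stands left of scrambled shRNA. Mmp1b, Mmp3, Mmp1a and Mmp10 lay higher in Urod shRNA libraries and Mmp13 lower, while Mmp12, Mmp8, Mmp27 and Mmp20 stood under 0.1 TPM in every library.

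Along the 427.1 kb spanned by the 10 Mmp genes of the cluster that were looked up here, neighbours did not move alike. Mmp1b, 95.7 kb from Mmp13, measured 1.84, 2.36 and 2.76 TPM in Urod shRNA libraries, against 0.149, 0.197 and 0.132 TPM in scrambled libraries. The groups were far apart, and the gene passed the filter only through the Urod shRNA libraries. Its reads were 85, 104 and 109 with the Urod hairpin against 5, 7 and 5 with the scrambled one, and by limma voom without the filter the log2 change was 3.78 (adjusted p = 2.96e-06). Mmp1a, the neighbour of Mmp3 and Mmp10, had 13, 5 and 11 reads in Urod shRNA libraries against 1, 2 and 2 in scrambled libraries (log2 change 1.92, adjusted p = 0.00684). Mmp1a and Mmp1b are paralogous interstitial collagenase genes, though GENCODE vM21 labels Mmp1a a polymorphic pseudogene and Mmp1b protein-coding. Reads of low mapping quality had been discarded, and whether this lowered either gene's value was not tested. Their windows also hold both the AP-1 and the TATA letters, the AP-1 letters 73 bases before the start of Mmp1a and 93 before that of Mmp1b. Mmp7, at the far end of the cluster, had no row among the expression values, so its level is not known here.

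**Figure D4:**
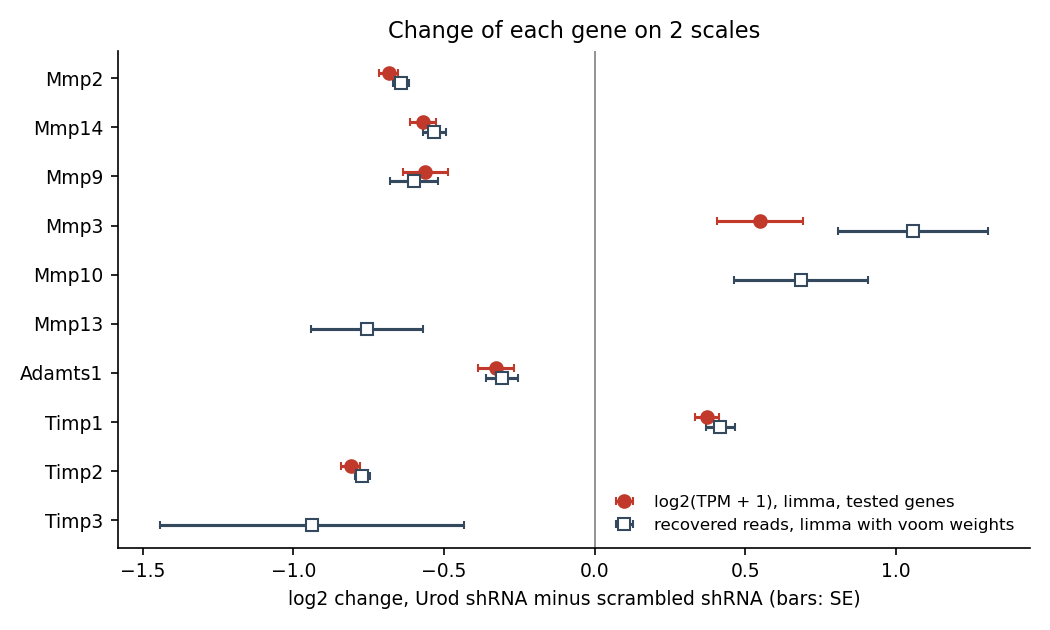
Change of each of the 10 genes, Urod shRNA minus scrambled shRNA, with bars for the SE, from limma on log2(TPM + 1) for the 7 tested genes and from limma voom on whole reads without a filter for all 10. The 2 scales give like values for abundant genes and part for Mmp3, at 0.55 and 1.06.

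The order of levels was Mmp2, Timp2, Timp1, Mmp14, Adamts1, Mmp9, Mmp3, Mmp10, Mmp13 and Timp3 in Urod shRNA libraries, with no overlap between neighbours' library ranges. In scrambled libraries the order was Mmp2, Timp2, Mmp14, Timp1, Adamts1, Mmp9, Mmp13, Mmp3, Mmp10 and Timp3. There the ranges of Mmp13 and Mmp3 overlapped, as did those of Mmp3 and Mmp10. Timp1 therefore stood over Mmp14 with the Urod hairpin and under it with the scrambled one. By group means, Mmp13 changed places with the stromelysins. In scrambled replicate 1, though, Mmp3 (1.385 TPM) lay over Mmp13 (1.243 TPM).

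In the authors' deposited table, which was made from the same libraries, all 10 genes had the sign found here, and 9 passed an FDR of 0.05, beside 56.1% of all 19617 rows. The authors' deposited table gives log2 fold changes of 0.96 for Mmp3, 0.68 for Mmp10 and -0.78 for Mmp13, all larger in size than on the log2(TPM + 1) scale. For Timp3 the authors' deposited table gives -1.05 with an FDR of 0.0826.

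Among the genes whose profile over the 6 libraries was nearest to that of Mmp3, which had the largest log2(TPM + 1) rise of the 7 tested among the 10 genes (with a pseudocount of 10 it was Timp1, at 0.36 against 0.11 for Mmp3), were Ndufab1 and Atp5g1. The root mean square difference of centred log2(TPM + 1) values was 0.0802 for Ndufab1 and 0.0881 for Atp5g1, and their changes were 0.59 and 0.65. For Timp2, with the largest fall of those 7, the nearest were Mastl, Cyld and Rbmx, with differences of 0.0118, 0.0143 and 0.0174 and changes of -0.80, -0.80 and -0.78. The genes named for Timp2 lay closer to it than those named for Mmp3 did to Mmp3.

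**Figure D5:**
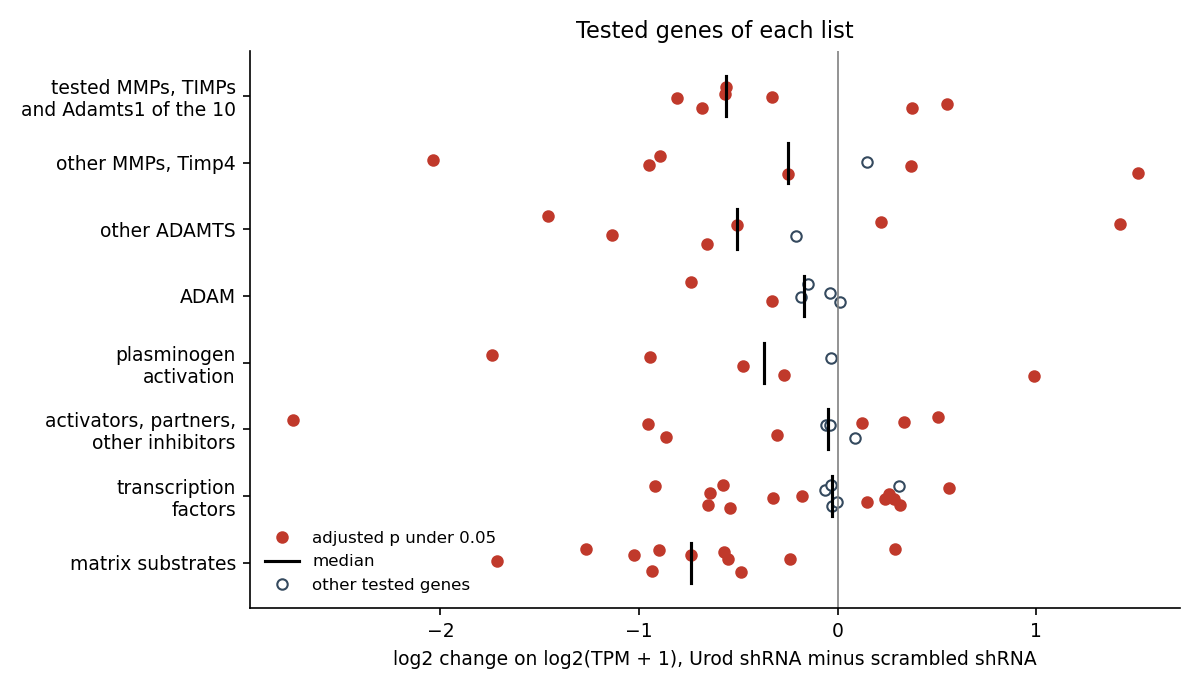
Change of each tested gene, Urod shRNA minus scrambled shRNA, on the log2(TPM + 1) scale, for the 10 genes' tested part and for 7 related lists; points are genes, filled where the adjusted p was under 0.05, and the black line is the list's median. Matrix substrates lie mostly under 0, and transcription factors lie on both sides of it.

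Other metalloproteinases and Timp4 were mixed. Of 18 listed, 16 were in the table and 7 tested, with 2 higher, 4 lower and 1 not called (median -0.25, beside 0.02 over all tested genes). Over all tested genes 74.7% were called, 38.5% higher and 36.2% lower, which is the background for this list and those below. Mmp11 (stromelysin-3), abundant in this line, fell to 96.1 ± 3.27 TPM with the Urod hairpin, against 179 ± 6.27 TPM with the scrambled one (log2 change -0.89, limma adjusted p = 8.25e-07). Timp4, the fourth inhibitor, fell to 0.550 ± 0.165 TPM in Urod shRNA libraries, against 5.34 ± 0.503 TPM in scrambled libraries (log2 change -2.04, limma adjusted p = 1.66e-06), and it passed the filter only through the scrambled group. Mmp28 (epilysin) fell by 0.95 (limma adjusted p = 2.4e-05). Mmp15, a membrane-type enzyme, was called lower by 0.25 at an adjusted p of 0.0309. Mmp1b was one of the genes called higher, and Mmp19 the other, at 15.8 ± 0.573 TPM with the Urod hairpin against 12.0 ± 0.446 TPM with the scrambled one (log2 change 0.37, limma adjusted p = 0.000285). Mmp23 was not called (adjusted p = 0.107).

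Among other ADAMTS proteases, 7 of 18 were tested, with 2 higher, 4 lower and 1 not called (median -0.51). The aggrecanase Adamts4 fell to 6.62 ± 0.776 TPM in Urod shRNA libraries, against 20.0 ± 3.30 TPM in scrambled libraries. Adamts8 rose to 20.4 ± 0.576 TPM in Urod shRNA libraries, against 7.03 ± 0.873 TPM in scrambled libraries. Their log2 changes were -1.46 (limma adjusted p = 2.38e-05) and 1.42 (2.72e-06), larger in size than that of Adamts1. Adamts10 fell by 1.14 (adjusted p = 0.00012) and Adamts14, which processes procollagen, by 0.66 (0.000144). Adamts7 was also lower and Adamts3 higher, and Adamts6 was not called. Of the ADAM proteases, membrane sheddases, 6 of 9 were tested and only Adam8 (-0.74, limma adjusted p = 0.000301) and Adam10 (-0.33, 1.45e-05) were called, both lower. Adam9, Adam15, Adam17 and Adam19 did not pass, although Adam15, Adam17 and Adam19 were called lower in some of the alternatives tried.

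In plasminogen activation, the protease cascade that activates proMMPs, 6 of 10 genes were tested, with 1 higher, 4 lower and 1 not called (median -0.37). Plau, the urokinase activator, fell to 34.4 ± 0.408 TPM with the Urod hairpin, against 117.5 ± 0.543 TPM with the scrambled one (log2 change -1.74, limma adjusted p = 2.31e-08). Its receptor Plaur rose to 203.5 ± 12.0 TPM in Urod shRNA libraries, against 102.3 ± 10.3 TPM in scrambled libraries (0.99, adjusted p = 1.4e-05). The tissue activator Plat fell by 0.94 (adjusted p = 3.68e-07), and the annexin Anxa2 by 0.27 (0.000122). Ligand and receptor of the urokinase system thus moved in opposite directions.

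Of 19 listed activators, binding partners and other inhibitors, 10 were tested, with 3 higher, 4 lower and 3 not called (median -0.05). The share called, 70.0%, lay near the 74.7% over all tested genes. Furin, the proprotein convertase that activates proMmp14 in the secretory pathway, rose by 0.50 (limma adjusted p = 0.00232). Thbs2, which binds Mmp2 and hands it to the scavenger receptor Lrp1, fell to 0.951 ± 0.0975 TPM with the Urod hairpin, against 12.05 ± 0.162 TPM with the scrambled one (log2 change -2.74, adjusted p = 6.69e-08), and it passed the filter only through the scrambled group. Lrp1 fell by 0.86 (adjusted p = 0.000103). Itgb3, an integrin chain whose dimer with Itgav binds Mmp2, fell by 0.95 (adjusted p = 1.43e-06). Cd63, a tetraspanin that binds Timp1, rose by 0.33 (adjusted p = 3.93e-05), and Cd44, which docks Mmp9 and Mmp14, fell by 0.30 (3.06e-05).

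Of 18 transcription factors known for binding metalloproteinase promoters, all were tested, with 6 higher, 7 lower and 5 not called (median -0.03). The share called, 72.2%, lay near the 74.7% over all tested genes. AP-1 subunits differed in direction. Fos fell to 48.5 ± 2.06 TPM with the Urod hairpin, against 92.5 ± 3.39 TPM with the scrambled one (log2 change -0.92, limma adjusted p = 1.24e-06), while Fosl1 rose to 210.8 ± 4.66 TPM with the Urod hairpin, against 142.7 ± 6.05 TPM with the scrambled one (0.56, adjusted p = 6.74e-06). Jun fell by 0.54 (adjusted p = 0.000178), Fosl2 by 0.58 and Fosb by 0.33. Jund was called higher by 0.24 (adjusted p = 0.0257) although its groups overlapped, and Junb was not called. Sp1, which binds GC boxes, fell by 0.65 (adjusted p = 7.91e-06) and Runx2 by 0.64 (1.54e-05).

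Of 16 listed matrix substrates, 11 were tested, with 1 higher and 10 lower (median -0.74). All 11 were called, where 74.7% of all tested genes were called and 36.2% were called lower. Col3a1 (type III collagen) fell to 33.6 ± 1.70 TPM in Urod shRNA libraries, against 112.9 ± 8.31 TPM in scrambled libraries (log2 change -1.72, limma adjusted p = 3.68e-07). Nid1 (nidogen) fell by 1.27 (adjusted p = 4.4e-07), Lamb1 (laminin beta) by 0.57 (5.06e-06) and Lama1 by 0.90 (2.29e-05). Lama1 averaged 0.441 TPM with the Urod hairpin and 1.69 TPM with the scrambled one, so it passed the filter only through the scrambled group. Col4a1, the type IV collagen cut by Mmp2 and Mmp9, fell by 1.03 (adjusted p = 8.95e-05). Pdgfra, which makes up nearly all of the fibroblast list's 34.0 to 36.2 TPM in Urod shRNA libraries and 57.1 to 60.0 TPM in scrambled libraries, was lower in the Urod shRNA ones, and its part was not tested.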

How the data were processed

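Polyadenylated RNA was sequenced as 51-bp single-end strand-specific reads, per the labels' protocols. After end trimming, TopHat2 placed them on mm10, those with a mapping quality under 10 were dropped, and Cufflinks and Cuffdiff 2.1.1 followed, per the submitters' processing notes and the labels' protocols. The deposited per-sample values, named as normalized counts, summed to 1000000 in each library and were read as TPM made by the authors. A second table deposited by the authors gives their log2 fold changes and log2 CPM beside p-values, FDR and the score of a likelihood ratio test whose model was not named in the sources used here.

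Groups followed the titles. Rows with names turned into dates (27, 0.231% to 0.241% of TPM) were left out. The comparison used limma 3.58.1 (R 4.3.3) on log2(TPM + 1), with a variance trend, for the 11980 genes whose mean reached 1 TPM, adjusted by Benjamini-Hochberg over all of them, two-sided, threshold 0.05. The method was tested on simulated data in which far fewer genes changed than were called here. That test does not cover changes this wide. In every library the values were whole multiples of the value of 1 read for 100% of rows (tolerance 0.001), and limma voom on those reads was added after seeing the data. The recovered reads are the smallest whole numbers that give the deposited values. The recovered reads gave log2 CPM with a median difference of 0.0085 from the authors' values, and 98.33% of 11618 genes lay within 0.1 of that median. Counting intervals are exact Poisson at 95%.

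The 10 genes and the 7 related lists were chosen with earlier results of these data known. All 10 genes are named. From each list every called gene is named where there were 4 or fewer, otherwise the 4 with the smallest adjusted p, plus genes needed to account for a list. Furin, Lrp1, Jun, Jund, Fosl2, Fosb and Col4a1 were added after their values were seen. Some genes that the rule would name are not reported here. The alternatives were pseudocounts of 0.1 and 10, other filters, median-ratio and quantile scaling, other variance trends, leaving out libraries in turn, and a replicate block. Positions are from GENCODE vM21 and promoters from RefSeq, where 8 of the 10 genes had an entry.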

Additional observations from a re-analysis of the deposited data

How the results depend on the processing

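Over 17 alternatives, no called change turned round: of 1229 values of 76 genes, 1173 kept their side of the threshold, 33 lost a call and 23 gained one. The 7 tested genes described here stayed called in every alternative that tested them. With a filter at a mean of 10 TPM, 1 of them was called higher, since Mmp3 and Mmp9 were then untested. Mmp3 ranged from 0.11 with a pseudocount of 10 to 1.06 by limma voom, and from 0.43 to 0.71 over single libraries left out. The upper value came without scrambled replicate 1. Over those same left-out libraries Mmp2 stayed at -0.70 to -0.66, Timp2 at -0.83 to -0.79 and Timp1 at 0.35 to 0.40. Calls over all tested genes numbered 8262 to 9008 with a library left out. The ratio of proteinase to inhibitor sums without Mmp2 and Timp2 was 0.685 in Urod shRNA libraries and 1.29 in scrambled libraries, since those genes make up most of both sums. The uncalled Adam9 and Adam17 changed sign. Calls on Mmp15, Adamts3, Cd151 and Jund were lost in some alternatives. Calls were gained on Adam15 (adjusted p = 0.000812 with the replicate block), Adam19 (0.0278 there), Adam17 (0.0281 with median-ratio and 0.0132 with quantile scaling), Mmp23, Adamts6 and Junb. The median change of all tested genes was 0.017, and -0.017 to 0.060 under other scalings.

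Labels share replicate numbers, and same-numbered libraries deviated together with r = 0.418, 0.214 and 0.095. Each Urod shRNA replicate went best with its same-numbered scrambled replicate, though narrowly for replicates 2 and 3. Urod shRNA replicate 2 had r = 0.203 with scrambled replicate 3, and Urod shRNA replicate 3 had 0.08 with scrambled replicate 2. Scrambled replicate 3 went better with Urod shRNA replicate 2 than with its own number. These values do not settle whether the numbers mark pairs, and the main test took the libraries as unpaired. With a replicate block 9882 of all tested genes were called, against 8945 without it, and 7 of the genes described here in both. Depth limits Timp3, Mmp1a and Mmp10, which rest on few reads, and 3 libraries a group limit all tests.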
